A study of Rattus norvegicus with 8 samples.

Results

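The Wnt ligands, their Frizzled and Lrp receptors, the secreted inhibitors, the R-spondins and Axin are described here. The tissue is the thoracic aorta of diabetic GK and control Wistar rats. Members were taken by gene symbol: Wnt with a number and an optional a or b, Fzd with a number, Sfrp1 to Sfrp5, Dkk1 to Dkk4, Rspo1 to Rspo4, Lrp5, Lrp6, Wif1, Axin1 and Axin2. The rule found 37 of the 19238 genes in the gene table, namely 15 Wnt ligands, 8 Frizzled receptors, 2 Lrp co-receptors, 7 secreted inhibitors, 4 R-spondins and Axin2. RNA from thoracic aorta had been sequenced in 8 libraries, 4 of GK rats and 4 of control Wistar rats, all aged 7 to 8 weeks. The GK strain, bred from Wistar rats, has inherited diabetes without obesity, and the labels put its aortas in a diabetic macroangiopathy group. Strain and diabetes divide the libraries in the same way and cannot be told apart. The labels do not say that each library is a separate animal, so p-values measure the spread between these samples, which may be technical. Libraries carry the numbers 7 to 10 in both groups and are called GK 7 to GK 10 and control 7 to control 10.

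Wnt proteins are secreted, lipid-modified ligands that bind Frizzled receptors. When Lrp5 or Lrp6 joins the complex, Axin is drawn away from the complex that destroys beta-catenin, and beta-catenin reaches the nucleus and acts with TCF/LEF factors. Wnt5a and Wnt11 are best known for signalling that does not use beta-catenin, and in the vessel wall Wnt signalling is known for its part in smooth muscle growth, endothelial barrier formation and calcification.

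Promoter sequences are shown for 2 members. Axin2, a scaffold of the destruction complex, is itself a well known beta-catenin target, and its promoter shows what a TCF/LEF motif looks like in this gene set. Wnt5a had the highest level per length of the ligands, and its promoter is the comparison. Each is the 250 bases before the gene start on the plus strand of GRCr8, from RefSeq, at chr10:94398535-94398784 for Axin2 and chr16:3703415-3703664 for Wnt5a, and capitals mark a TCF/LEF heptamer.
Axin2: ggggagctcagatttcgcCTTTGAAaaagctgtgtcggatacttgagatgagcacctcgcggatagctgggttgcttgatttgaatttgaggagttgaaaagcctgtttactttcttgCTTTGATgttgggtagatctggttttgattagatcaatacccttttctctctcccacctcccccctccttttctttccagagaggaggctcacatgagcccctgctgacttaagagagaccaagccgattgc
Wnt5a: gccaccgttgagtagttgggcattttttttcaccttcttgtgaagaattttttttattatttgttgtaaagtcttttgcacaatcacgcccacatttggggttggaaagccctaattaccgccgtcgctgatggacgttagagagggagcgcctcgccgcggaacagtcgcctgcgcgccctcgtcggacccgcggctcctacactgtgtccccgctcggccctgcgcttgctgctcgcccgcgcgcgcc
A motif was counted on either strand wherever the window held CTTTGAA, the same letters ending in AT (found as CTTTGAT in Axin2), the form CTTTGTA or the form CTTTGTT, and forms on opposite strands can share at most 2 bases. Axin2 had CTTTGAA starting at base -232 and CTTTGAT starting at base -132 relative to the gene start, and Wnt5a had none in this window. Of the 37 members 23 had an entry in the promoter table, and 3 of these held a motif, namely Axin2, Sfrp5 and Wnt8a, with 1 each in Sfrp5 and Wnt8a. Of all 33469 rat promoter windows of this length, 4985 held one, or 14.9%. A match is a run of letters and not a measured binding site.

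Totals of the gene table ran from 13188728 to 16266151 counts in GK libraries and from 11760397 to 13466170 in control libraries. Markers of smooth muscle, the main cell of the aortic media, were present in every library, with summed levels of 2655 to 7281 CPM, read counts scaled to a common library size, in GK and 5710 to 15126 CPM in control libraries over 10 genes. Fibroblast markers did not overlap between the groups, at 1796 to 5503 CPM in GK and 7841 to 15189 CPM in control libraries over 10 genes. Endothelial and neutrophil markers did not overlap either, and both were higher in GK: endothelial markers reached 1040 to 1272 CPM in GK and 637 to 1008 CPM in control libraries, and neutrophil markers 241 to 312 CPM in GK and 25.9 to 165 CPM in control libraries. General adipocyte markers reached 8369 to 16645 CPM in GK and 6220 to 9115 CPM in control libraries, and brown adipocyte markers 1495 to 4993 CPM in GK and 567 to 2991 CPM in control libraries. Without GK 9 both adipocyte lists were apart as well, with GK at 13743 to 16645 CPM of general and 4327 to 4993 CPM of brown adipocyte markers. Single libraries stood apart. GK 9 had 16653 CPM of skeletal muscle markers, against 18 to 46.4 CPM in the other GK libraries and 17.9 to 47.9 CPM in control libraries. Cardiomyocyte markers were at 938 CPM in GK 7, 1851 CPM in GK 8 and 126 CPM in GK 9, against 10.9 CPM in GK 10, and at 466 CPM in control 7, against 5.36 to 5.80 CPM in the other controls. Erythroid markers, over 3 genes, reached 29481 CPM in control 9 and 18784 CPM in control 8. They were at 2562 CPM in control 7, 2037 CPM in control 10 and 3500 to 7627 CPM in GK libraries. None of these marker lists had its genes at 0. In bulk RNA, fewer cells of a type and less RNA per cell cannot be told apart, and the part of these cell type markers in the results was not tested. Results that rest on GK 9 are given with and without it.

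Within this family only Dkk3 passed the test between the aortas of GK and control rats. The share of tested members that passed, 3.85%, was not above the 7.28% of all genes. Dkk3, a secreted Dickkopf-family protein, fell to 0.258 times its control level, and kept the call in 4 of 8 fits with 1 library left out. Lrp6, the co-receptor, stood at 2.23 times its control level with no overlap of the groups but missed the threshold. Rspo3, an R-spondin, stood at 0.455 times its control level, also without overlap, and did not pass. Groups without overlap were no more common among members (11.5%) than among all genes (15.6%). Most ligands and inhibitors had lower mean levels in GK libraries without passing the test, whereas Fzd4, the most abundant receptor, and Axin2, the feedback target, differed little in level.

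Of the 37 members, 31 reached 10 counts in at least 2 libraries, and 26 passed the filter on low counts and were tested. Differences are log2 fold changes, GK over control, from edgeR's quasi-likelihood test on all genes tested, and a gene is said to rise or fall where its Benjamini-Hochberg adjusted p was under 0.05. One of the 26 tested members fell and 0 rose, or 3.85%, against 7.28% of the 13673 genes tested (3.31% lower and 3.96% higher in GK). The members' share was thus not above that of all genes. A further count was made without adjustment: 8 members had an unadjusted p under 0.05, 2 higher and 6 lower in GK, beside 27.6% of all genes. The groups did not overlap for 3 members, Lrp6 being higher and Dkk3 and Rspo3 lower in GK libraries, or 11.5%, against 15.6% of all genes (7.93% higher and 7.64% lower in GK). The log2 fold change was below 0 in 20 of the 26 and above 0 in 6, with a median of -0.51, whereas over all genes tested 6830 lay below 0 and 6843 above, with a median of 0.00.

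**Figure D1:**
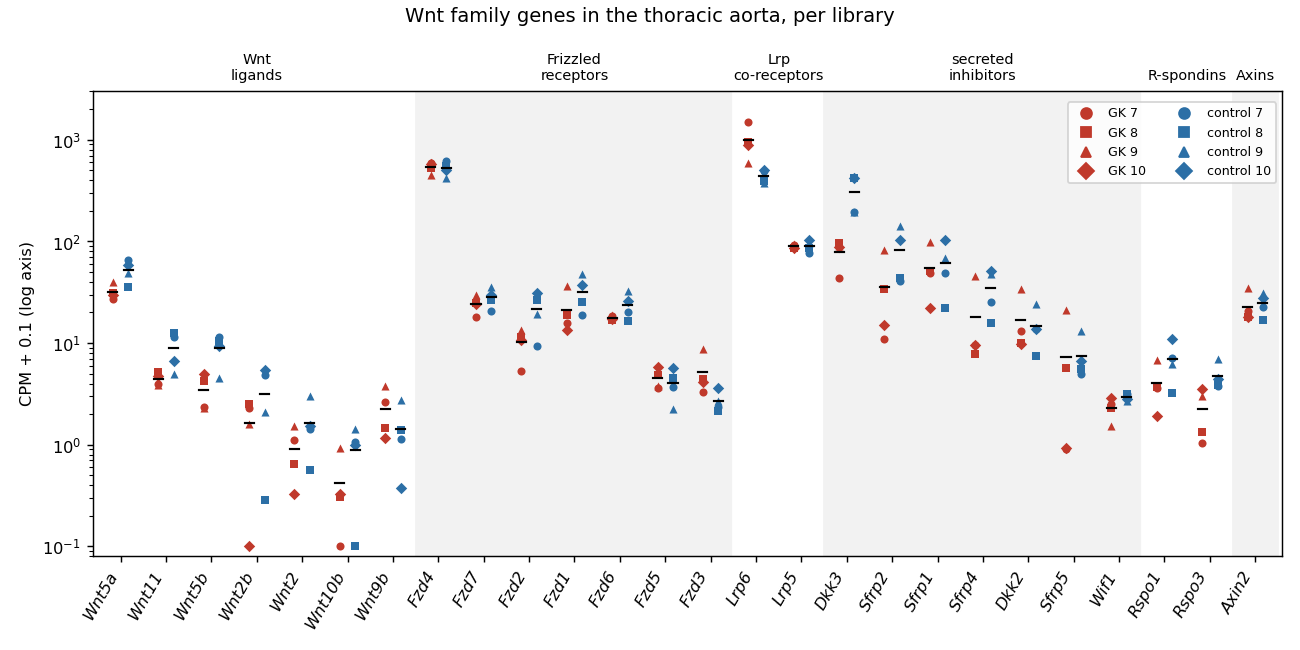
Level of each tested member in each library, as CPM with 0.1 added on a log axis, grouped by role and ordered by mean FPKM within a role. GK libraries are the red symbols on the left and control libraries the blue symbols on the right, the symbol shape marks the library number and black lines are means. All 4 GK values of Dkk3 lie below its 4 control values, and all 4 GK values of Lrp6 lie above its 4 control values.

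GK 9 was the highest GK library for 17 of the 26 tested members and for 5 of the 7 inhibitors. Among controls, control 9 was the highest for 11 members and control 10 for 10. Without GK 9, 5 members passed the test, Lrp6 rising and Dkk3, Wnt5a, Sfrp2 and Sfrp4 falling, and the median log2 fold change of the members was -0.88. The background moved with it, since 3046 of 13775 genes, or 22.1%, passed without GK 9. Without both libraries numbered 9, 6 members passed (Lrp6 higher, Dkk3, Wnt5a, Wnt5b, Wnt11 and Sfrp4 lower), beside 18.7% of genes. The members called therefore depended on this library, and Dkk3 was the only member called in all 3 of these fits.

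**Figure D2:**
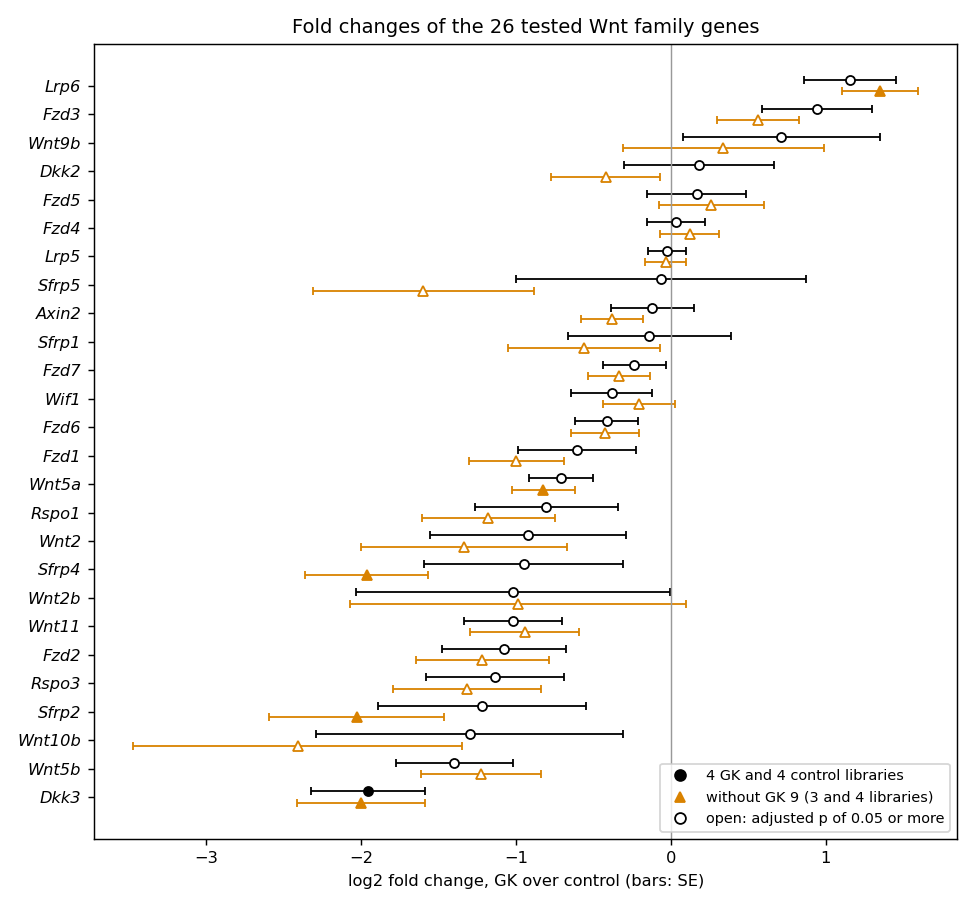
Log2 fold change, GK over control, of the 26 tested members with SE, ordered by value. Black circles use all 8 libraries and orange triangles leave out GK 9, with filled symbols where the adjusted p was under 0.05. With all libraries Dkk3 is filled, and without GK 9 Dkk3, Sfrp2, Sfrp4, Wnt5a and Lrp6 are filled.

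Among the Wnt ligands, no gene passed edgeR's test, and 6 of the 7 tested had a log2 fold change below 0 (median -1.02). DESeq2 called Wnt5a (adjusted p = 0.027), Wnt5b (0.009) and Wnt11 (0.035), all lower in GK, beside 16.2% of all genes in either direction. Wnt5a, a ligand of Ror and Frizzled receptors, was the most abundant per length, with a mean of 6.20 ± 2.20 FPKM, a level scaled to gene length and library size, in GK and 11.2 ± 3.13 FPKM in control libraries (SD, n = 4 each), which was 48.6% to 62.2% of the summed ligand FPKM in GK and 44.0% to 51.8% in control libraries. Its levels in GK 7 to 10 were 27.3, 30.8, 39.8 and 29.3 CPM, against 65.5, 35.4, 49.3 and 58.0 CPM in control 7 to 10. Control 8 lay below GK 9, so the groups overlapped. Wnt5a had a log2 fold change of -0.71 ± 0.21 (SE; adjusted p = 0.070), and it fell when GK 9 (-0.82, adjusted p = 0.027) or control 8 (-0.86, adjusted p = 0.042) was left out.

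Wnt5b, the close paralogue of Wnt5a, and Wnt11, a ligand of planar polarity signalling, were far less abundant. Wnt5b reached 2.26, 4.12, 2.19 and 4.83 CPM in GK 7 to 10, against 11.3, 10.4, 4.42 and 9.28 CPM in control 7 to 10. Only GK 10 exceeded the lowest control, control 9, and the log2 fold change was -1.40 ± 0.38 (adjusted p = 0.059). Wnt11 stood at 3.87, 5.08, 3.74 and 4.68 CPM in GK 7 to 10, against 11.3, 12.5, 4.89 and 6.62 CPM in control 7 to 10. Control 7 and control 8 were well above the rest, GK 8 lay just above control 9, and the log2 fold change was -1.02 ± 0.32 (adjusted p = 0.084). Wnt5b passed without control 9 (-1.62, adjusted p = 0.043). Both genes rest on few reads, from 31 to 154 counts per library for Wnt5b and from 53 to 154 for Wnt11.

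The other tested ligands, Wnt2, Wnt2b, Wnt9b and Wnt10b, had mean levels of 0.318 to 2.17 CPM in GK and 0.795 to 3.07 CPM in control libraries, with adjusted p from 0.371 to 0.539. Wnt9b was the only tested ligand with a log2 fold change above 0, at 0.71 ± 0.64 (adjusted p = 0.492). Wnt2b had 0 counts in GK 10 and 2 counts in control 8, against 23 to 35 counts in the other GK libraries and 30 to 78 in the other controls. Its annotated span overlaps that of St7l, and since no source used here says whether counting used strand, reads of such a pair cannot be told apart. A group of 8 ligands was too low to test. Wnt4 and Wnt6 were detected, and their highest library was GK 9 with 53 and 66 counts. Wnt1, Wnt7b, Wnt8a, Wnt9a, Wnt10a and Wnt16 were not detected by the count rule. Wnt8a had 1, 3, 2 and 1 counts in GK 7 to 10 and 0 in every control library, which is at the floor of 3 counts, so no fold is given. Wnt16 had 39 counts in control 9 and at most 3 in any other library. Summed over all 15 ligands, the level was 12.1 ± 5.03 FPKM in GK and 22.5 ± 5.14 FPKM in control libraries. The deposited FPKM lack the normalization factors used for CPM. Differences between the groups in FPKM can therefore hold a part that is scaling, and they were not tested.

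R-spondins bind Lgr receptors and raise the number of Frizzled and Lrp molecules at the cell surface. None passed the test. Rspo3, known from mice for its need in vessel development, reached 0.949, 1.24, 2.90 and 3.40 CPM in GK 7 to 10, against 3.67, 3.79, 6.90 and 4.3 CPM in control 7 to 10. Every GK value lay below every control value, the closest being GK 10 and control 7, on 13 to 45 counts in GK and 41 to 103 counts in control libraries. For Rspo3 the log2 fold change was -1.14 ± 0.44 (adjusted p = 0.143). Rspo1 stood at 3.50, 3.64, 6.71 and 1.81 CPM in GK 7 to 10, against 7.05, 3.14, 6.17 and 11 CPM in control 7 to 10, and the groups overlapped (-0.80 ± 0.46, adjusted p = 0.293). Rspo2 and Rspo4 were detected but too low to test. Rspo4 had 8, 9, 14 and 13 counts in GK 7 to 10, against 3, 7, 4 and 5 in control 7 to 10, whereas Rspo2 had 70 counts in GK 9 and 45 in control 9 and at most 11 in any other library.

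Frizzled receptors carried the second highest summed level per length of the roles in GK libraries, 100.03 ± 13.1 FPKM, against 121 ± 11 FPKM in control libraries, and none passed the test. Fzd4, the receptor for Norrin and several Wnts and known for its role in retinal vessels, made up 64.9% to 81.4% of this sum in GK and 58.6% to 79.3% in control libraries. Its levels in GK 7 to 10 were 597, 528, 447 and 577 CPM, against 623, 552, 418 and 507 CPM in control 7 to 10. The lowest value of each group was the library numbered 9, and the groups overlapped almost wholly. Fzd4 had a log2 fold change of 0.03 ± 0.19 (adjusted p = 0.924), on 5972 to 8493 counts per library. Its mean was lower in GK by FPKM (73.7 against 80.7) but not by CPM (537 against 525). The limit on FPKM given for the ligands thus applies to the Frizzled sums too.

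Fzd7 and Fzd2 followed Fzd4 in level per length over all libraries, with 8.26 ± 2.94 and 5.22 ± 2.44 FPKM in GK against 10.8 ± 3.61 and 11.9 ± 5.25 FPKM in control libraries. Fzd7 had 17.8, 24.6, 29.4 and 24.0 CPM in GK 7 to 10, against 20.8, 26.5, 35.5 and 29.9 CPM in control 7 to 10, with overlapping groups (log2 fold change -0.23 ± 0.21, adjusted p = 0.483). Fzd2 had 5.26, 11.4, 13.3 and 10.6 CPM in GK 7 to 10, against 9.18, 26.7, 19.0 and 30.7 CPM in control 7 to 10. Control 7 fell within the GK range, and the other 3 controls lay above every GK library (log2 fold change -1.08 ± 0.40, adjusted p = 0.129). Of the other Frizzled genes, Fzd3, known for axon guidance and planar polarity in mice, had the highest fold change, at 5.05 ± 2.45 CPM in GK and 2.62 ± 0.664 CPM in control libraries (0.94 ± 0.36, adjusted p = 0.133). Its highest library was GK 9 at 8.65 CPM, against 3.21 to 4.32 CPM in the other GK libraries and 2.03 to 3.55 CPM in controls. Leaving out 1 library at a time gave Fzd3 a log2 fold change of 0.57 to 1.12, and it passed in 0 of these fits. Fzd1, Fzd5 and Fzd6 had log2 fold changes of -0.61 ± 0.38, 0.17 ± 0.32 and -0.41 ± 0.21, with adjusted p of 0.333, 0.758 and 0.231. Fzd9 had 3 to 13 counts in GK and 0 to 5 in control libraries and was not tested.

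Lrp6 and Lrp5 are the single-pass co-receptors that couple Frizzled to Axin, and in these libraries they behaved unlike each other. Lrp6 (chromosome 4, 168194927 to 168323751 in the authors' coordinates, for which no rat build is named) reached 1515, 959, 586 and 883 CPM in GK 7 to 10, against 490, 396, 374 and 508 CPM in control 7 to 10. All 4 GK libraries lay above all 4 controls, with GK 7 far above the rest and GK 9 the closest to the controls. The mean was 986 ± 388 CPM in GK and 442 ± 66.9 CPM in control libraries. Its log2 fold change was 1.16 ± 0.29, and the adjusted p of 0.051 missed the threshold. Lrp6 rose when GK 9 was left out (1.35, adjusted p = 0.010) and in 5 of 13 alternatives in all. In the authors' deposited table its q-value was 0.012 and its log2 ratio 0.95, and it carried no call.

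Lrp5 stood at 92.7, 85.6, 93.4 and 85.8 CPM in GK 7 to 10, against 76.7, 86.2, 97.5 and 103 CPM in control 7 to 10. The GK libraries fell inside the range of the controls, and the log2 fold change was -0.02 ± 0.12 (adjusted p = 0.917). Per length, Lrp6 exceeded Lrp5 by a factor of 13.5, 9.26, 5.18 and 8.51 in GK 7 to 10, against 5.28, 3.80, 3.17 and 4.08 in control 7 to 10. The ratio of GK 9 lay just under that of control 7, and the other 3 GK libraries had higher ratios than every control. The difference in ratio was not tested. The Lrp6 share of the co-receptor FPKM was 83.8% to 93.1% in GK and 76.0% to 84.1% in control libraries.

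**Figure D3:**
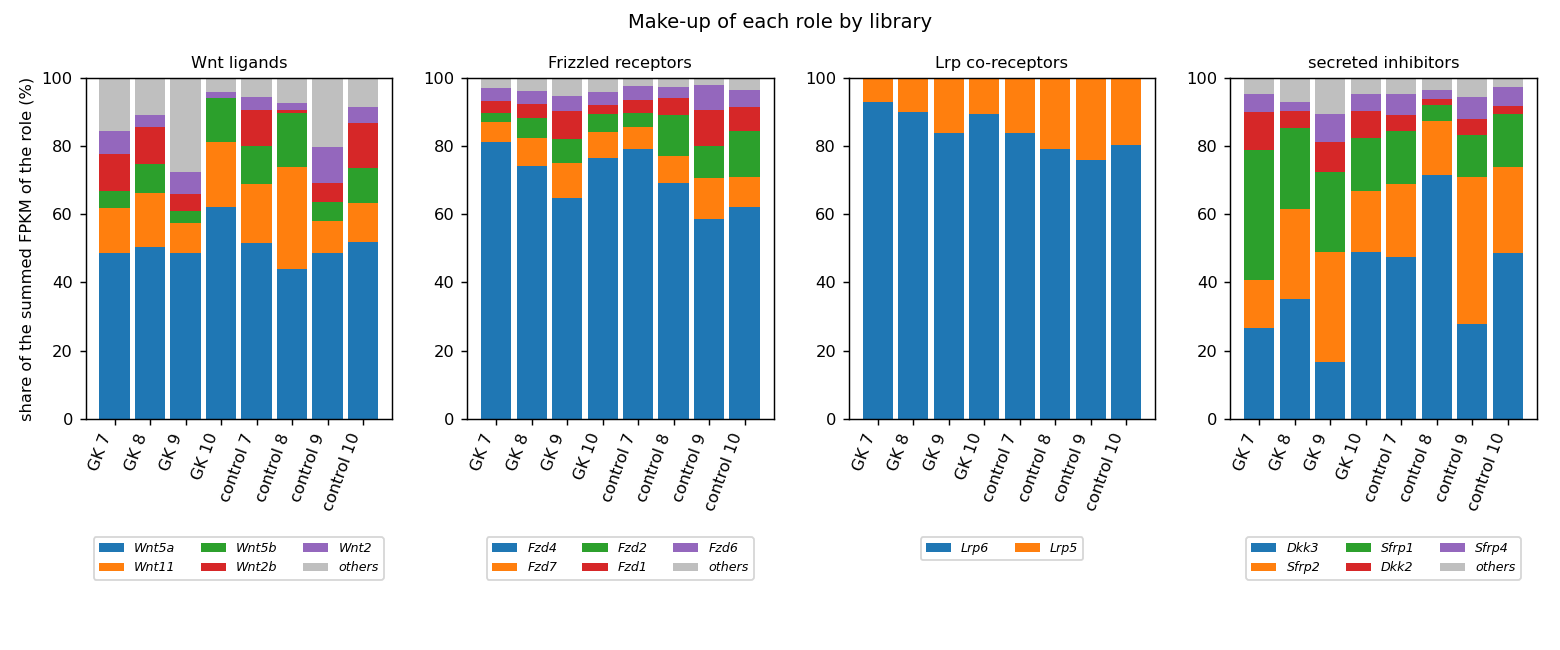
Share of the summed FPKM of each role taken by its members, in percent, in the 4 GK libraries (left) and the 4 control libraries (right) of each panel; the 5 members with the highest mean share have a colour each and the rest are grey. Wnt5a, Fzd4 and Lrp6 take the largest share of their role in all 8 libraries, whereas the largest share among the secreted inhibitors is that of Dkk3, Sfrp2 or Sfrp1, depending on the library.

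The secreted inhibitors held the only member that passed the test. Dkk3 is a Dickkopf protein whose action on Wnt signalling depends on the cell type, and it is known as a protein of the vessel wall in mice. Dkk3 (chromosome 1, 176940693 to 176983045 in the same coordinates) had 43.8, 97.0, 89.2 and 87.8 CPM in GK 7 to 10, against 193, 421, 197 and 422 CPM in control 7 to 10. Every GK library lay below every control. The controls fell into a lower pair, control 7 and control 9, and a higher pair, control 8 and control 10, and GK 7 was the lowest of all. Dkk3 fell by 1.95 on the log2 scale (SE 0.37, adjusted p = 0.022), on 600 to 1413 counts per GK library and 2630 to 6180 per control library. The authors' deposited table gave a log2 ratio of -2.06 and a q-value of 2.6e-05, and listed Dkk3 as lower in GK. The direction held in all 13 alternatives (-2.18 to -1.75), but the call was lost when GK 7 (adjusted p = 0.063), GK 8 (0.069), GK 10 (0.060) or control 10 (0.075) was left out. Leaving out GK 9 kept it (-2.0, adjusted p = 0.015). The share of all genes that passed moved as well. Leaving out GK 7 gave 1.34%, GK 8 gave 1.3% and GK 10 gave 2.1%. Among controls, leaving out control 7 gave 4.07%, control 8 gave 4.24%, control 9 gave 3.78% and control 10 gave 0.974%. With all libraries it was 7.25% with DESeq2's size factors in edgeR, 16.2% with DESeq2, 3.4% without the filter and 17.3% with a replicate block.

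**Figure D4:**
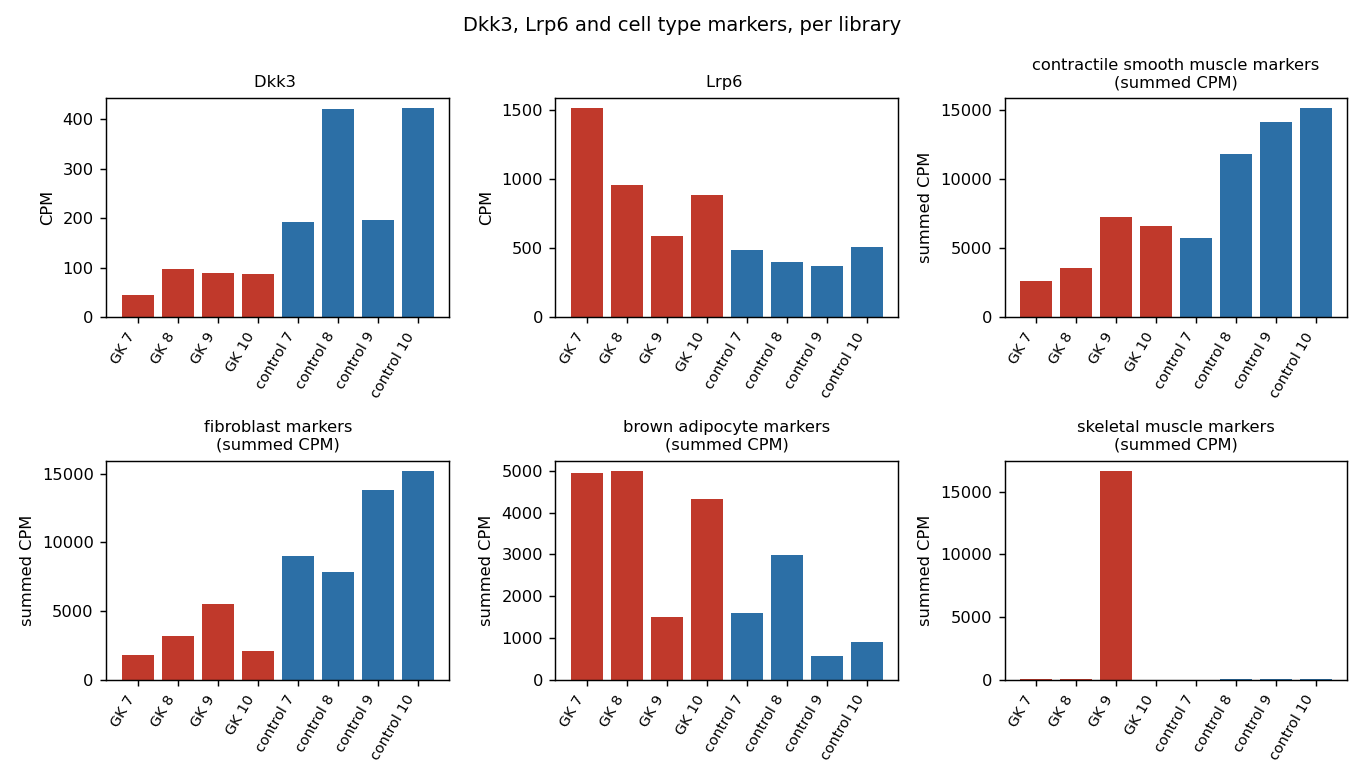
Level in CPM of Dkk3 and Lrp6 and summed CPM of 4 cell type marker lists in each library, GK in red on the left and control in blue on the right; all axes start at 0. Dkk3 is lower and Lrp6 higher in all GK libraries, fibroblast markers are lower in all GK libraries (1796 to 5503 CPM, against 7841 to 15189 CPM in controls), smooth muscle and brown adipocyte markers overlap, and skeletal muscle markers reach 16653 CPM in GK 9.

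Fibroblast markers were lower in all GK libraries, as Dkk3 was, endothelial and neutrophil markers were higher in all GK libraries, as Lrp6 was, and smooth muscle markers were lower in GK 7 to GK 10 than in 3 of the 4 controls, with control 7 at 5710 CPM. Within the groups the match was partial. GK 7 was lowest for Dkk3 and fibroblast markers, but control 8, with 421 CPM of Dkk3, was the lowest control for fibroblast markers (7841 CPM). For smooth muscle markers GK 7 (2655 CPM) and control 7 were the lowest of their groups, as for Dkk3. Control 10 (15126 CPM) was the highest control for both. However, control 9 had 14159 CPM of smooth muscle markers but 197 CPM of Dkk3. The highest GK library was GK 9 for smooth muscle markers (7281 CPM) and GK 8 for Dkk3. GK 7 was highest for Lrp6 and endothelial markers, but the lowest GK library for neutrophil markers (241 CPM). Both adipocyte lists, apart without GK 9, had their lowest GK value in GK 9, as Lrp6 had. The part of RNA from any of these cell types in the values of Dkk3 and Lrp6 was not tested.

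Secreted Frizzled-related proteins carry a Frizzled-like domain that binds Wnts. Sfrp2 had 10.9, 34.0, 81.6 and 15 CPM in GK 7 to 10, against 40.4, 43.7, 142 and 103 CPM in control 7 to 10. GK 9 was above 2 of the 4 controls, and the other 3 GK libraries were below every control. For Sfrp2 the log2 fold change was -1.22 ± 0.67 (adjusted p = 0.275), and without GK 9 it fell (-2.03, adjusted p = 0.038). Sfrp4 had a similar pattern: GK 9 reached 45.9 CPM, the other GK libraries 7.69 to 9.51 CPM, and the controls 15.8 to 51.6 CPM. For Sfrp4 the log2 fold change was -0.95 ± 0.64 (adjusted p = 0.365) with all libraries, and without GK 9 it fell (-1.96, adjusted p = 0.014). The annotated span of Sfrp4 overlaps that of Nme8, so the same limit on strand applies.

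Sfrp1 varied as much within the groups as between them, at 49.0, 51.1, 98.9 and 21.8 CPM in GK 7 to 10, against 49.3, 21.9, 68.0 and 104 CPM in control 7 to 10. The log2 fold change was -0.14 ± 0.53 (adjusted p = 0.884). Sfrp1 made up 15.7% to 38.2% of the inhibitor FPKM in GK and 4.79% to 15.7% in control libraries, while the Dkk3 share was 16.5% to 49.0% in GK and 27.9% to 71.5% in control libraries. Sfrp5, Dkk2 and Wif1, a Wnt-binding inhibitor, had log2 fold changes of -0.06 ± 0.94, 0.18 ± 0.49 and -0.38 ± 0.26, with the lowest adjusted p, 0.371, for Wif1. Sfrp5 ranged most, from 0.803 to 21.2 CPM in GK and from 4.84 to 12.9 CPM in control libraries, and GK 9 was its highest library. Summed over the 7 inhibitors, the level was 59.3 ± 46.3 FPKM in GK and 138 ± 51.6 FPKM in control libraries, with the sum of 127 FPKM in GK 9 inside the control range and 27.8 to 53.5 FPKM in the other GK libraries. The same limit on FPKM applies to these sums.

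The order of the members by level per length was not the same in the groups. In GK libraries Lrp6 came first at 147 ± 43.6 FPKM and Fzd4 second at 73.7 ± 3.06 FPKM, followed by Lrp5 (16.8 ± 3.34), Sfrp2 (16.1 ± 17.2), Dkk3 (15.4 ± 5.99) and Sfrp1 (14.5 ± 10.8), the last 4 lying within each other's spread. In control libraries Fzd4 (80.7 ± 8.17 FPKM), Lrp6 (76.4 ± 13) and Dkk3 (64.2 ± 24.6) lay within each other's spread, ahead of Sfrp2 (39.5 ± 27.9), Lrp5 (19.2 ± 4.39) and Sfrp1 (17.2 ± 10.4) by mean. Dkk3 and Sfrp2 lay within each other's spread too, and in control 9 Sfrp2 was the higher, at 75.2 FPKM against 48.6 FPKM of Dkk3.

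Axin2, whose promoter is given above, stood at 20.4, 17.8, 34.5 and 17.9 CPM in GK 7 to 10, against 22.7, 16.9, 30.8 and 27.9 CPM in control 7 to 10. The libraries numbered 9 were the highest of their groups, and the groups overlapped. The log2 fold change was -0.12 ± 0.27 (adjusted p = 0.798), and leaving out 1 library at a time gave -0.38 to 0.01. Of 16 tested genes on a list of known Wnt targets that includes Axin2, 0 passed edgeR's test, and 4 had an unadjusted p under 0.05, all lower in GK, beside 27.6% of all genes in either direction. DESeq2 called 2, Myc and Wisp2, both lower, beside 16.2% of all genes. Without GK 9 edgeR called 6, all lower, beside 22.1% of all genes in either direction. The median log2 fold change of the list was -0.32. Wisp2 (Ccn5), a matricellular protein, had 32.6 ± 11.5 CPM in GK and 102 ± 53.1 CPM in control libraries (-1.65 ± 0.46, adjusted p = 0.065), and Jag1, a Notch ligand, had 108 ± 29.2 CPM in GK and 129 ± 25.7 CPM in control libraries (-0.25 ± 0.22, adjusted p = 0.476). These were the 2 listed targets with the highest mean CPM, and Myc is named after its values were seen.

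Beyond the members, 61 of the 65 found genes of 4 other Wnt pathway lists were tested. One rose and 1 fell, or 3.28%, against 7.28% of all genes (3.96% higher and 3.31% lower in GK). Of 12 tested genes of Wnt secretion and extracellular handling, 1 fell: Frzb, a secreted Frizzled-related protein whose symbol lies outside the naming rule. Frzb had 71.2, 120, 190 and 179 CPM in GK 7 to 10, against 283, 665, 404 and 654 CPM in control 7 to 10. All GK libraries lay below all controls, and control 8 and control 10 were the highest, as for Dkk3. Frzb thus had a log2 fold change of -1.84 ± 0.39 (adjusted p = 0.031). Of 29 cytoplasmic and nuclear transducers, 1 rose: Gsk3a, a kinase of the beta-catenin destruction complex and of glycogen metabolism, at 98.5 ± 20.9 CPM in GK and 58.7 ± 8.25 CPM in control libraries (0.75 ± 0.19, adjusted p = 0.049). GK 9 at 67.2 CPM lay below control 8 at 68.7 CPM, so the groups overlapped. When GK 7, GK 8, GK 10, control 8, control 9 or control 10 was left out, 0 of the 61 genes passed, and without control 7 only Frzb did.

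None of 11 tested receptors other than Frizzled passed edgeR's test, with 1 at an unadjusted p under 0.05 (27.6% of all genes), and DESeq2 called Ror1 (16.2% of all genes). Ryk, a Wnt receptor of the tyrosine kinase type, had 87.7 ± 9.41 CPM in GK and 91.4 ± 3.94 CPM in control libraries (-0.06 ± 0.12, adjusted p = 0.759), and Reck, a partner of the Wnt7 receptor complex in brain vessels, had 34.2 ± 21.5 CPM in GK and 57.3 ± 24.2 CPM in control libraries (-0.74 ± 0.44, adjusted p = 0.307). Ror1, a Wnt5a receptor, had no overlap of the groups, at 8.10 to 30.3 CPM in GK and 31.3 to 56.7 CPM in control libraries. The log2 fold change of Ror1 was -1.44 ± 0.38 (adjusted p = 0.054). Groups without overlap were found for 4 of the 61 genes, all lower in GK, with Frzb and Ror1 among them. This share, 6.56%, was not above the 15.6% of all genes. Ror1 and Celsr2 are named after their values were seen. None of 9 tested planar cell polarity genes passed edgeR's test, with 2 at an unadjusted p under 0.05, and DESeq2 called Celsr2, beside the same shares of all genes. Celsr2 was higher in GK, at 3.87, 9.95, 26.6 and 5.13 CPM in GK 7 to 10, against 2.72 to 4.02 CPM in control libraries. In edgeR its log2 fold change was 1.71 ± 0.58 (adjusted p = 0.104). Its highest library was GK 9, and it did not pass edgeR's test without GK 9. Daam1, a formin that acts downstream of Dishevelled, had 68.1 ± 7.29 CPM in GK and 79.5 ± 9.46 CPM in control libraries (-0.22 ± 0.13, adjusted p = 0.298), and Prickle1 had 34.9 ± 8.48 CPM in GK and 41.7 ± 6.14 CPM in control libraries (-0.25 ± 0.19, adjusted p = 0.412). Without GK 9, 13 of the 61 genes passed, 1 higher (Gsk3a) and 12 lower, among them Frzb and Ror1, beside the 22.1% of all genes.

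The authors' deposited pathway table listed 3 of their called genes in the KEGG Wnt signaling pathway, 2 higher in GK (Camk2b and Mapk10) and 1 lower (Serpinf1), of 137 annotated genes, with a p-value and a q-value of 1. None of the 3 is a member.

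The series also holds long non-coding RNA (lncRNA). The authors' deposited table of differential lncRNAs with predicted target genes paired 67 lncRNAs with a member, in 95 pairs, all of the trans kind: 45 with Wnt4, 28 with Sfrp5 and 22 with Fzd6. Of the 67, 29 passed the filter on low counts, and 10 rose and 7 fell, beside 2.74% of the 11683 lncRNA transcripts tested; since the table holds lncRNAs that the authors chose as differential, nothing is read from this share. Of the 3 with the lowest adjusted p (0.003 each), MSTRG.22975.2, paired with Fzd6 and Sfrp5, had 95.5, 113, 53.3 and 73.8 CPM in GK 7 to 10 and 0 in every control library. NONRATT001106.2, paired with Wnt4, had 15.7, 22.5, 18.6 and 19.3 CPM in GK 7 to 10, against 118, 148, 101 and 77.3 CPM in control 7 to 10. MSTRG.23736.1, also paired with Wnt4, had 1.21, 0.591, 4.14 and 2.66 CPM in GK 7 to 10, against 114, 73.0, 51.2 and 108 CPM in control 7 to 10. The groups of these 3 lncRNAs did not overlap, whereas of the paired members Fzd6 and Sfrp5 did not pass the test and Wnt4 was too low to test. By position, 22 lncRNAs overlapped 14 of the members. Of these lncRNAs 8 were tested and 0 passed, beside 2.74% of all lncRNA transcripts tested. With so few tested, 0 cannot be told apart from that share.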

How the data were processed

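Counts, whole numbers per gene and per lncRNA transcript, and FPKM values were deposited by the authors for each library, per the file headers. The log2 ratios of group means, p-values and q-values printed as the authors' are from their deposited tables, made with edgeR per the file headers and names. Other values used, the pairs of lncRNA and predicted target and the KEGG gene numbers, are as deposited by the authors. The submitters' processing notes name Bowtie 0.12.2 and the mouse builds mm8 and mm9 with no role, and name no rat build. Groups come from titles and strain, since the source name field gives GK for controls too.

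Counts were tested in R 4.3.3 with edgeR 4.0.16: filterByExpr by group, TMM factors (0.826 to 1.24), glmQLFit and glmQLFTest with group alone, and Benjamini-Hochberg adjusted p under 0.05 over all 13673 genes or 11683 lncRNAs tested. CPM use TMM-scaled totals. FPKM are as deposited, without these factors, and serve to compare genes, so differences between groups in FPKM are description only. Alternatives were DESeq2 1.42.0, its size factors in edgeR, no filter, a replicate block, each library left out and both libraries numbered 9 left out. Every member is accounted for. Values per library are given for members past the test, with groups that do not overlap, or among the 3 highest per length of their role; from other lists, genes past the test or the 2 with the highest mean CPM are named. Members and lists were chosen with earlier results of these data known. The code was tested on simulated data.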

Additional observations from a re-analysis of the deposited data

Results flagged for a closer look

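In groups of 4 libraries, 90 groups of values were examined for 1 library whose gap to the nearest other exceeded Dixon's 95% critical share of the group's range, and 9 were marked. Chance alone marks about 1 in 20 groups where values are independent and normally distributed. The groups here share the same 8 libraries, so the 9 marks cannot be set against that rate. GK 9 had 34.5 CPM of Axin2, against 17.8 to 20.4 CPM in the other GK libraries. GK 9 had 34.1 CPM of Dkk2, against 9.74 to 13 CPM in the other GK libraries. GK 9 also had 45.9 CPM of Sfrp4, against 7.69 to 9.51 CPM in the other GK libraries, and 67.2 CPM of Gsk3a, against 107 to 111 CPM. The summed skeletal muscle markers of GK 9 were 16653 CPM, against 18 to 46.4 CPM, and its chondrocyte markers 11 CPM, against 2.42 to 3.58 CPM in the other GK libraries. GK 7 had 241 CPM of neutrophil markers, against 301 to 312 CPM in the other GK libraries. Control 7 had 466 CPM of cardiomyocyte markers, against 5.36 to 5.80 CPM in the other controls, and control 8 had 31.7 CPM of mast cell markers, against 124 to 137 CPM.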

How the results depend on the processing

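The number of genes past the test was 995 and became 2433 with DESeq2, 654 with no filter, 2534 without both libraries numbered 9, and 135 to 3046 with 1 library left out. Members past the test numbered 1, 2 with DESeq2's size factors in edgeR, 5 with DESeq2, 6 without both libraries numbered 9, and 0 to 5 with 1 library left out. Other pathway genes numbered 2, 5 with DESeq2, 1 with no filter, 12 without both libraries numbered 9, and 0 to 13 with 1 left out; known targets numbered 0, 2 with DESeq2, 5 without both, and 0 to 6 with 1 left out. LncRNAs numbered 320, 931 with DESeq2, 158 with no filter, 501 without both, and 108 to 581 with 1 left out. With a replicate block the counts were 2372 genes, 5 members (Lrp6 higher, Dkk3, Wnt5b, Fzd2 and Rspo3 lower), 10 other pathway genes, 4 targets and 250 lncRNAs. The labels give no reason to pair same-numbered libraries. Their deviations from the group means correlated at 0.438, 0.114, 0.560 and 0.000655 for 7, 8, 9 and 10 (mean 0.278, against -0.09 for other pairs), and 2 of 4 GK libraries correlated best with their own number, so the numbers were not taken as pairs, though 3 of the 4 values were above 0.1. Under the block the adjusted p was 0.022 for Fzd2, 0.048 for Rspo3, 0.026 for Wnt5b and 0.021 for Lrp6. Leaving out 1 library turned the sign of the log2 fold change for 7 of the 26 tested members, none of them called: Axin2 ranged from -0.38 to 0.014, Fzd4 from -0.058 to 0.14, Fzd5 from -0.028 to 0.38, Lrp5 from -0.085 to 0.039, Dkk2 from -0.42 to 0.53, Sfrp1 from -0.56 to 0.25 and Sfrp5 from -1.60 to 0.35. Dkk2 was also at -0.095 without both libraries numbered 9. The cause of these shifts was not tested. Ligands and R-spondins with few counts per library are limited by depth.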
